A study of Mus musculus with 4 samples.

Results

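The cytosolic ribosomal protein genes and their pseudogenes were examined in cultured mouse microglia with and without lysophosphatidylserine (LysoPS), a phospholipid with a single fatty acid chain that is known as a ligand of the receptor GPR34. Members were taken by name: gene models called Rpl or Rps followed by a digit or p, and Rpsa, without the S6 kinases, that held 40 or more counts over the 4 libraries. The names fitted 359 of 51826 gene models, and 197 of them passed the count minimum. Of these 197, 89 carried no -ps suffix and 108 carried it, the suffix that marks a pseudogene. The 89 were 46 large-subunit (60S) genes, 31 small-subunit (40S) genes, 7 paralogs of subunit genes, 4 further copies that GENCODE annotates as processed pseudogenes, and Rps19bp1, which the name rule takes although it encodes a binding partner of RPS19 and not a ribosomal protein. GENCODE also annotates Rps4l, counted among the paralogs, as a transcribed processed pseudogene, and Rpl10-ps3 as protein-coding.

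There were 2 libraries labelled as treated with LysoPS for 4 h, set against 2 mock libraries labelled untreated. All were primary microglia of strain C57BL/6, prepared from the brains of newborn mice after the meninges were taken off, kept for 2 weeks in mixed culture and shaken loose. No dose was given, and whether the libraries of a group came from separate cultures was not stated, so p-values measure only the spread between these libraries, which may be technical. Library totals were 34689045 and 45193959 counts with LysoPS, against 30001098 and 41572340 counts in mock.

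A cytosolic ribosome holds each of its proteins once, apart from the acidic stalk proteins, and the genes for them are scattered over the genome. Their mRNAs are among the most abundant of a growing cell and begin with a C followed by a pyrimidine tract (the TOP motif), through which mTOR signalling and the protein LARP1 control their translation. Mammalian genomes hold very many processed pseudogenes of these genes, which arose when their mRNAs were copied back into DNA, and these copies can be nearly identical to the coding sequence of the parent gene.

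The subunit genes stood a little higher with LysoPS. Of 77, 49 rose, none fell, and 28 did not pass (edgeR's quasi-likelihood test, Benjamini-Hochberg adjusted p under 0.05). An unadjusted p under 0.05 was reached by 67, all higher, and DESeq2 and limma-voom called none lower either. Against a null fold change of 1.2, 1 of the 77 was called higher, beside 7.29% of all genes tested. Over all 19057 genes tested, the test against no change called 12.8% higher, 12.6% lower and 25.5% in either direction. Among the 89 members without -ps, 52 rose (58.4%) and none fell. The median log2 fold change of the 77 was 0.34 (1.27-fold), with values from -0.17 to 0.55 and an SD between genes of 0.11, beside a median of -0.01 over all genes tested. It was above 0 in 76 of the 77 genes. In 72 genes both LysoPS libraries stood above both mock libraries, as did 32.5% of all genes tested, in 1 (Rps25) both stood below, as did 34.5%, and in 4 (Rpl7, Rpl22, Rpl23 and Rpl27) the groups overlapped. In these bulk cultures fewer cells of a type and less RNA per cell cannot be told apart.

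The values of the 2 subunits were close. Of the 60S genes 32 of 46 rose, with a median log2 fold change of 0.34, and of the 40S genes 17 of 31 rose, with a median of 0.36. Together the 77 genes held 3.06% and 2.72% of all counts in LysoPS 1 and LysoPS 2, against 2.49% and 2.39% in mock 1 and mock 2. The means were 2.89% ± 0.240 with LysoPS and 2.44% ± 0.0720 in mock (SD, n = 2 each), a difference of 0.44 percentage points. The groups did not overlap, and an exact two-sided permutation test of 2 against 2 libraries gave p = 0.333, the smallest it allows.

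The calls depended on which library was left out, and each such fit leaves a group with a single library. Nearly all calls on the 77 genes were lost without mock 1 or without mock 2. The calls over all genes became fewer by a much smaller share. Without LysoPS 1 fewer of the 77 were called and without LysoPS 2 more, and the calls over all genes moved the same way. The median log2 fold change was 0.38 without mock 1, 0.31 without mock 2, 0.24 without LysoPS 1 and 0.44 without LysoPS 2, so LysoPS 1 carried much of its size. With offsets for transcript length and GC content it was 0.21, with 41 genes called higher and Rps25 lower. LysoPS 1 exceeded LysoPS 2 in all 77 genes (median ratio of CPM 1.13, where CPM is the count scaled to library size), and mock 1 exceeded mock 2 in 69 (median ratio 1.05). LysoPS 2 alone was above both mock libraries in 72.

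**Figure D1:**
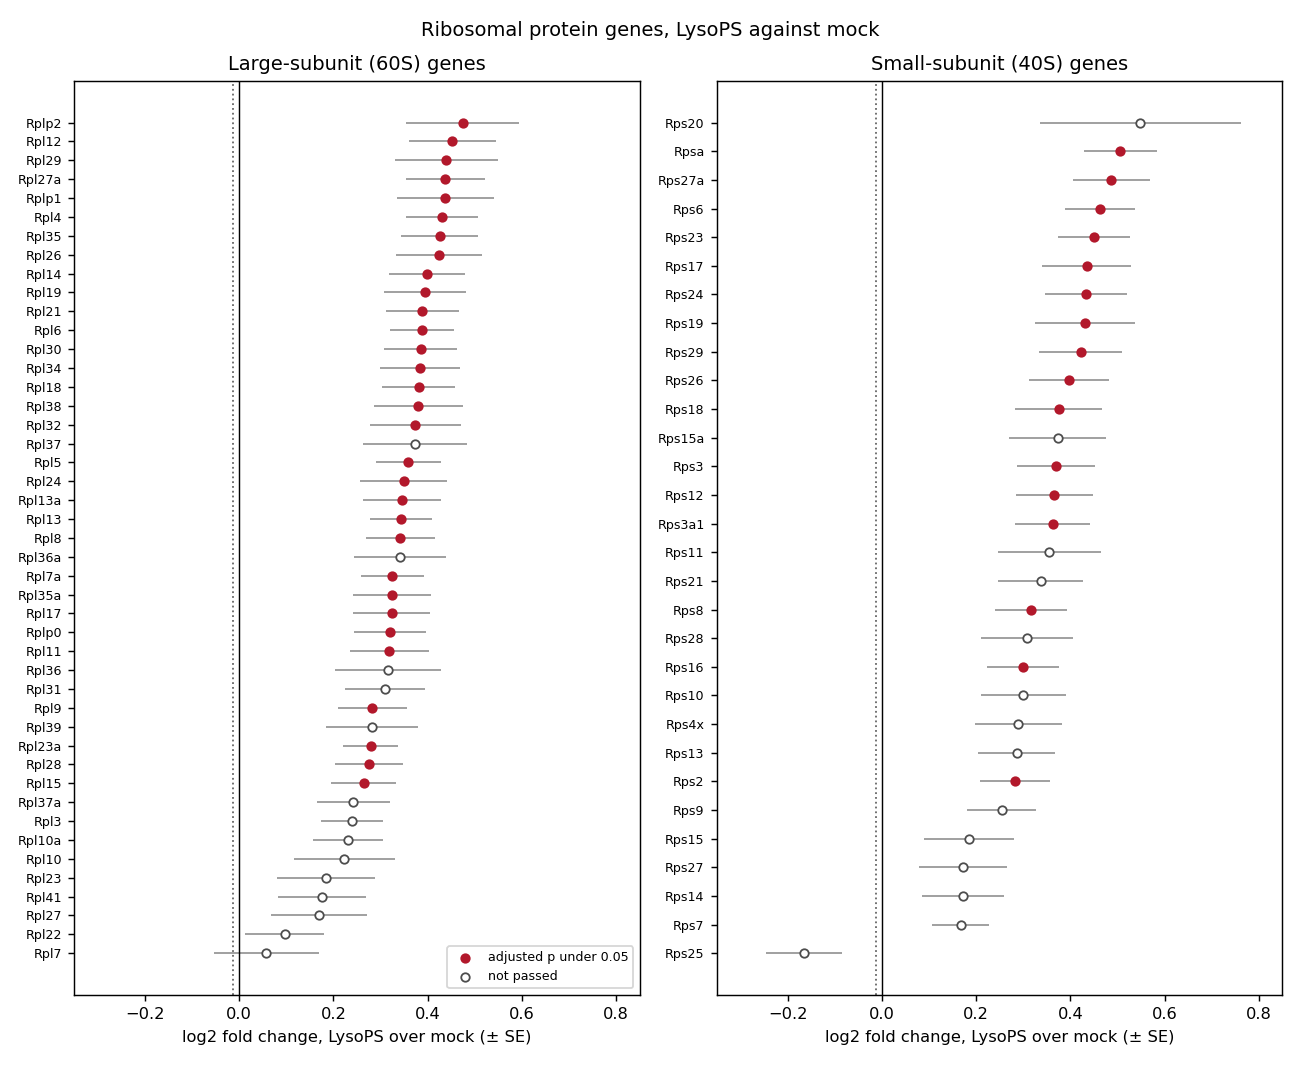
Log2 fold change of each 60S and 40S gene, LysoPS over mock, with its standard error, ordered by size; 2 genes are not drawn, filled points passed an adjusted p under 0.05 and the dotted line is the median of all genes tested (-0.01). The genes lie close together between 0.06 (Rpl7) and 0.55 (Rps20), and Rps25 at -0.17 is the only one left of 0.

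Among the 40S genes Rpsa had the smallest p-value. It encodes RPSA, which sits at the outer face of the small subunit and is also known as the laminin receptor. Rpsa (ENSMUSG00000032518, chromosome 9 from 120127689 to 120132369 in GRCm38, plus strand) stood at 1257 and 1132 CPM with LysoPS, against 874 and 809 CPM in mock. Both LysoPS libraries were higher (log2 fold change 0.51, SE 0.08, adjusted p = 0.0107), and Rpsa still passed without mock 1 but not without mock 2. The length implied by its counts and FPKM varied 1.27-fold between libraries. To which transcript models its reads were assigned was not tested. That of Rps13 varied 1.31-fold.

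Rps6 (ENSMUSG00000028495, chromosome 4 from 86854660 to 86857412) encodes the classic substrate of the S6 kinases downstream of mTOR. It stood at 746 and 672 CPM with LysoPS, against 528 and 501 CPM in mock (log2 fold change 0.46, SE 0.07, adjusted p = 0.0121). Rps27a, which encodes RPS27A fused behind a ubiquitin, stood at 355 and 312 CPM with LysoPS, against 240 and 236 CPM in mock (0.49, SE 0.08, adjusted p = 0.0137). For both genes the lower LysoPS library lay well above the higher mock library. Rps23, whose protein lines the decoding centre, and Rps24 also rose, with log2 fold changes of 0.45 and 0.43.

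Among the 60S genes Rpl6 stood at 653 and 601 CPM with LysoPS, against 490 and 468 CPM in mock (log2 fold change 0.39, SE 0.07, adjusted p = 0.0154). Rpl4, whose protein reaches into the tunnel through which the nascent chain leaves, stood at 1133 and 1012 CPM with LysoPS, against 818 and 773 CPM in mock (0.43, SE 0.08, adjusted p = 0.0162). Rpl13, Rpl35, Rpl5 and Rpl27a completed the 6 smallest p-values of this subunit, with log2 fold changes from 0.34 (Rpl13) to 0.44 (Rpl27a). The groups were apart in each of these.

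The stalk of the large subunit, which recruits elongation factors, is built from the products of Rplp0, Rplp1 and Rplp2, and all 3 genes rose. Rplp0 stood at 1280 and 1143 CPM with LysoPS, against 998 and 942 CPM in mock (log2 fold change 0.32, SE 0.08, adjusted p = 0.0367). Rplp1 had a log2 fold change of 0.44 (adjusted p = 0.0354), which was 0.19 with the offsets (adjusted p = 0.0762). Rplp2 stood at 181 and 144 CPM with LysoPS, against 116 and 117 CPM in mock (0.47, SE 0.12, adjusted p = 0.0426), the largest value of the 60S genes. LysoPS 1 stood apart from LysoPS 2 more in Rplp2 than in most of the subunit genes.

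RPL5 and RPL11 form, with the 5S rRNA, a particle that can bind MDM2 and so stabilise p53. Rpl5 stood at 529 and 481 CPM with LysoPS, against 395 and 393 CPM in mock (log2 fold change 0.36, SE 0.07, adjusted p = 0.0202). Rpl11 stood at 293 and 259 CPM with LysoPS, against 227 and 215 CPM in mock (0.32, SE 0.08, adjusted p = 0.0471). Both rose by about as much as the median subunit gene, and Rpl11 did not pass without LysoPS 1. Neither passed without mock 1 or without mock 2. With offsets for transcript length and GC content Rpl11 was at 0.15 and did not pass (adjusted p = 0.0575), nor did it with the 5 CPM filter (adjusted p = 0.0503).

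A few subunit genes stood out from the rest by their values, and they were picked after these were seen. Rps25, whose protein is known for its part in initiation at viral internal ribosome entry sites, stood at 189 and 169 CPM with LysoPS, against 205 and 196 CPM in mock (log2 fold change -0.17, SE 0.08, adjusted p = 0.194). With offsets for transcript length and GC content it was called lower (-0.27, adjusted p = 0.0119). Rpl7 had the smallest difference above 0, at 487 and 443 CPM with LysoPS, against 490 and 404 CPM in mock (0.06, adjusted p = 0.738). Its groups overlapped, and its sign turned under 4 of the alternatives.

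Rps20 had the largest log2 fold change of the 77 genes and yet did not pass. It stood at 280 and 247 CPM with LysoPS, against 219 and 141 CPM in mock (log2 fold change 0.55, SE 0.21, adjusted p = 0.124), so mock 1 lay closer to LysoPS 2 than to mock 2. Without mock 1 the value was 0.90 and passed (adjusted p = 0.0138). In Rpl22, a gene known for its role in T cell development, the groups overlapped, at 124 and 111 CPM with LysoPS, against 113 and 106 CPM in mock (0.10, adjusted p = 0.442).

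Levels between genes were compared per length, as deposited TPM, which scales each library to the same total after dividing by transcript length. Rplp1 was the highest subunit gene, at a mean of 2270 TPM over the 4 libraries (2654 and 2296 TPM with LysoPS, against 2003 and 2129 TPM in mock). Rpl23a averaged 2064 TPM, with all 4 libraries between 1987 and 2141, and Rplp0 averaged 1734 TPM. At the other end Rps15a averaged 101 TPM, Rpl22 128 TPM and Rps20 136 TPM. In CPM, which is not divided by length, Rps15a stood at 284 and 236 with LysoPS, against 206 and 196 in mock. The longest GENCODE transcript had 5179 bases for Rps15a and 3706 for Rps20, beside a median of 1094 bases over the subunit genes. It had 4059 bases for Rps24, which averaged 1544 TPM. The longest transcript need not be the main mRNA of a gene, and the part of the length in these levels was not tested.

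The starts of 5 genes show the promoter region and any run like the tract that begins a TOP mRNA. They hold 60 bases before and 40 from the annotated start (RefSeq, GRCm38.p6, sense strand, 5′ to 3′). Capitals mark a C followed by 6 or more C or T that begins within 30 bases of that start. Rps6, Rplp2 and Rpsa rose, Rps25 had the lowest value of the subunit genes, and Rpl22l1 is a paralog without a difference.
Rps6, chr4:86857328-86857427, minus strand: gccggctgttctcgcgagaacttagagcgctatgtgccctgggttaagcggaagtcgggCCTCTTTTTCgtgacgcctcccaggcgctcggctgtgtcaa
Rplp2, chr7:141447591-141447690, plus strand: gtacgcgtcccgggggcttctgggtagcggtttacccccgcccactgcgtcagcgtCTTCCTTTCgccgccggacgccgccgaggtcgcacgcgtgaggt
Rpsa, chr9:120127706-120127805, plus strand: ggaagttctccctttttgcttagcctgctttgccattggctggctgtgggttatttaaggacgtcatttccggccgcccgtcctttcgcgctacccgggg
Rps25, chr9:44407654-44407753, plus strand: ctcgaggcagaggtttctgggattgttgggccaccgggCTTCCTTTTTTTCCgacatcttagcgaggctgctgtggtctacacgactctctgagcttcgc
Rpl22l1, chr3:28805448-28805547, plus strand: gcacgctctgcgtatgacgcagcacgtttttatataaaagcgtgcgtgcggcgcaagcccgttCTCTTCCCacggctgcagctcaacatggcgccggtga

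By this pattern Rpsa has no tract, while Rps25 and Rpl22l1 have one. That of Rps25 begins 22 bases before the annotated start. The annotated start lay 575 bases from the deposited start of the gene in Rps25, 281 in Rplp2 and 77 in Rpsa. Which starts the cells used was not tested, so a gene without a match is not shown to lack a TOP motif. Of the 77 subunit genes 57 had a promoter of 300 bases in the RefSeq table (250 before and 50 after the start), and 32 of them (56.1%) held the tract, beside 26.5% of all 27025 promoters. The median log2 fold change was 0.35 in genes with the tract and 0.32 in genes without. CCGGAAG, a sequence bound by ETS factors, was searched on both strands and stood in 23 of the 57 promoters (40.4%), beside 9.12% of all, and in none did it overlap the tract. Genes with CCGGAAG had a median log2 fold change of 0.37 and genes without it 0.32. TCTCGCGAGA, which reads the same on both strands, was read from the Rps6 promoter and lies upstream of the start shown. It stood in 5 of the 57 (8.77%), with Rps6 among them by this choice, beside 0.496% of all. It overlapped neither of the others. The 5 genes had a median of 0.43 and the 52 without it 0.33. None of these differences was tested, and a match describes letters and no bound site.

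Of 7 paralogs, 2 rose (Rpl36al and Rpl7l1; 28.6%, beside 12.8% of all genes), none fell and 5 did not pass. Rpl36al, on chromosome 12 from 69182731 to 69184083 (GRCm38), is a second gene for nearly the same protein as the X-linked Rpl36a. Rpl36al stood at 92.1 and 73.2 CPM with LysoPS, against 50.02 and 50.24 CPM in mock (log2 fold change 0.72, SE 0.12, adjusted p = 0.0151). Rpl36a stood at 87.4 and 75.5 CPM with LysoPS, against 65.8 and 62.7 CPM in mock (0.34, SE 0.10, adjusted p = 0.0585). The TPM of Rpl36al was 95.9% and 92.2% of that of Rpl36a with LysoPS, against 71.7% and 78.0% in mock. This ratio did not overlap between the groups, and the difference between the fold changes of the 2 genes was not tested.

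Rpl22l1, whose product can replace RPL22 in the ribosome, had a higher level per length than Rpl22 in every library. It stood at 54.2 and 50.1 CPM with LysoPS, against 53.5 and 51.8 CPM in mock (log2 fold change -0.01, SE 0.08, adjusted p = 0.920), and the sign turned under 4 alternatives. The TPM of Rpl22l1 was 140% and 149% of that of Rpl22 with LysoPS, against 160% and 165% in mock. The groups overlapped for Rpl22l1 and for Rpl22, while their ratio was lower in both LysoPS libraries.

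Rpl7l1 rose, at 117 and 110 CPM with LysoPS, against 90.6 and 87.7 CPM in mock (log2 fold change 0.35, SE 0.07, adjusted p = 0.0249), and did not pass without LysoPS 1 or without either mock library. Rps27l, whose human counterpart is a p53 target, stood at 88.2 and 75.4 CPM with LysoPS, against 65.0 and 60.6 CPM in mock (0.38, SE 0.10, adjusted p = 0.0511). Rps4l, at 30.1 and 25.1 CPM with LysoPS, against 20.9 and 19.8 CPM in mock, came close to the threshold as well (0.44, SE 0.12, adjusted p = 0.0539). In Rps27l and Rps4l the LysoPS libraries lay above both mock libraries. Rps27l passed under 6 of the alternatives, among them the DESeq2 test.

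Rpl39l, known in mice for its expression in the testis, was scarce. Its counts were 70 and 89 with LysoPS, against 12 and 42 in mock, or 2.09 and 2.04 CPM against 0.390 and 0.971 CPM (log2 fold change 1.55, SE 0.43, adjusted p = 0.0533). Mock 2 lay well above mock 1, and the value was 2.39 without mock 2. The TPM of Rpl39l stayed below 1% of that of Rpl39, at 0.795% and 0.936% with LysoPS, against 0.187% and 0.488% in mock. Rps19bp1, whose product AROS binds RPS19 and the deacetylase SIRT1, also rose, at 17.8 and 15.0 CPM with LysoPS, against 10.97 and 10.82 CPM in mock (0.59, SE 0.13, adjusted p = 0.0285).

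**Figure D2:**
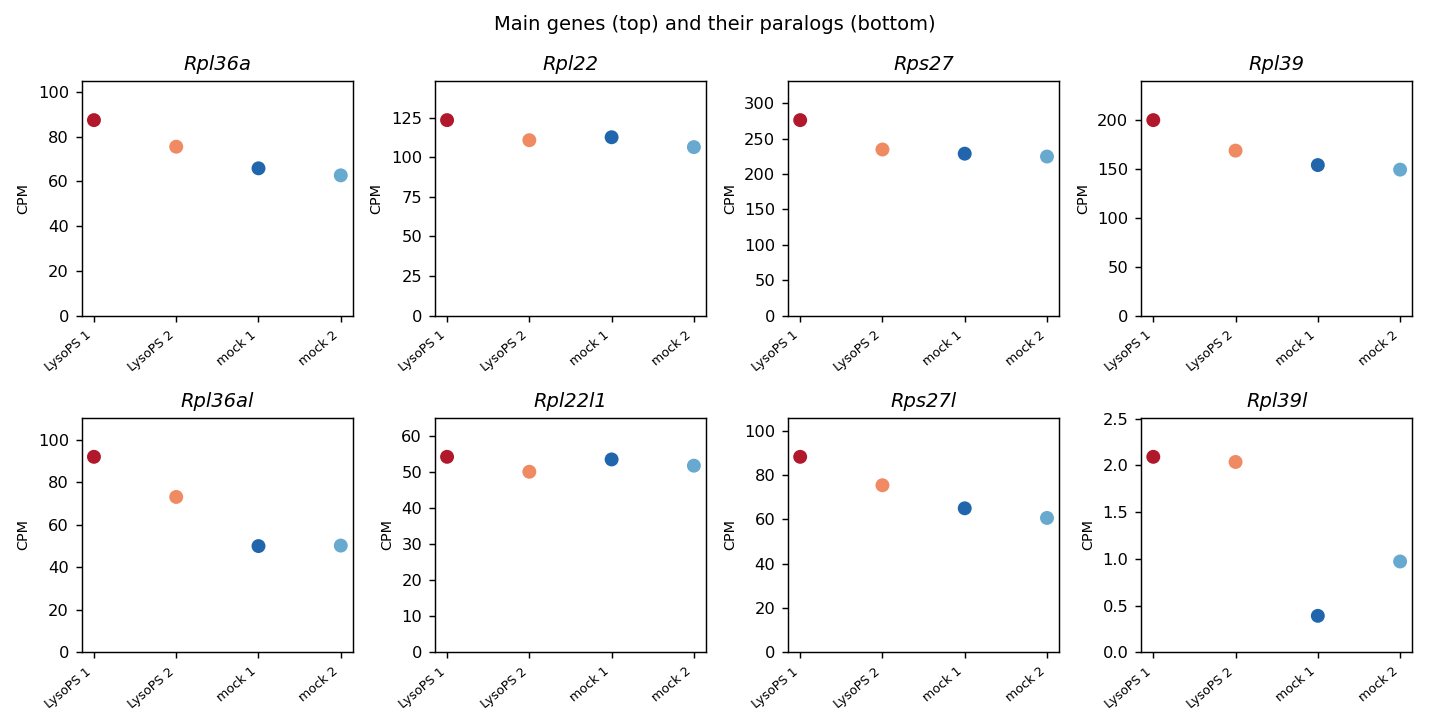
CPM of 4 subunit genes (top) and the paralog of each (bottom) in the 4 libraries, with axes that start at 0 and differ between panels. Rpl36al is higher in both LysoPS libraries by more than Rpl36a is, Rpl22l1 lies between 50.1 and 54.2 CPM in all libraries, and Rpl39l stays near or below 2 CPM.

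Most -ps rows are near-identical to the parent gene. For 107 of the 108 -ps rows a local alignment of the transcript to the coding sequence of the parent gene was made. It covered 95% or more of the coding sequence in 80, and only 42 bases in Rpl18-ps1 (71.4% identity). Identity was counted over the aligned bases, with gaps left out, and its median was 99.1%. The identity was 95% or more in 105, and 15 had no mismatch. In 102 of the 107 (95.3%) at least 1 stretch of 100 bases was identical to the parent. Among the -ps names under 40 counts this held for 34 of 157 (21.7%), with a median identity of 94.0%. Neither the read length nor the placing of reads with several matches was given in the sources used here, so counts of these rows and of their parents are uncertain.

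The first 90 bases from the start codon of the parent show how close the pairs are. Rps6-ps4 is among the -ps rows with the most counts and has the letters of Rps6 in this stretch without a difference. Rpl3-ps1 differs from Rpl3 by 1 base in it, which is in capitals.
Rps6: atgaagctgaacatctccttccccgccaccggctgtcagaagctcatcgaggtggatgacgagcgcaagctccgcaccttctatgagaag
Rps6-ps4: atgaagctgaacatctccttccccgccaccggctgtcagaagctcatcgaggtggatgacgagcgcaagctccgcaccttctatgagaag
Rpl3: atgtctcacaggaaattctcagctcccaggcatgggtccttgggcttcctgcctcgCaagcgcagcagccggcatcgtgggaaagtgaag
Rpl3-ps1: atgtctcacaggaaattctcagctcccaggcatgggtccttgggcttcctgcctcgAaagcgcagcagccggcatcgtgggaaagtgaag

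A pseudogene's name can also point to another parent than its sequence. Rpl36a-ps3 matched the coding sequence of Rpl36a at 87.4% (40 mismatches) and that of Rpl36al at 99.7% (1 difference). Bases 91 to 180 from the start codon are shown for the 3, with capitals where they are not all the same.
Rpl36a-ps3: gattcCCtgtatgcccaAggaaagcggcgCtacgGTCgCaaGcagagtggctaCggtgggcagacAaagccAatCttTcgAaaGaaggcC
Rpl36al: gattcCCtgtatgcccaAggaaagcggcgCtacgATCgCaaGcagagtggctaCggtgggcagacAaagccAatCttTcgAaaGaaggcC
Rpl36a: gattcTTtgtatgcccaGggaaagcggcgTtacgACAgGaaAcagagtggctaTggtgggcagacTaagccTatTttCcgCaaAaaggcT

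The log2 fold change of Rpl36a-ps3 was 0.68 (8.42 and 5.49 CPM with LysoPS, against 4.25 and 4.39 CPM in mock, SE 0.24, adjusted p = 0.0954), beside a median of 0.69 over all -ps rows tested.

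The -ps rows had larger differences between the groups than the subunit genes and hardly any calls. Of 108, 106 passed the filter on low counts, 2 were called higher and none lower by edgeR, a share of 1.89% beside 12.8% called higher over all genes, and 20 had an unadjusted p under 0.05, all higher. Their median log2 fold change was 0.69 (1.62-fold), and it was above 0 in 104. In 72 of the 108 both LysoPS libraries exceeded both mock libraries, which is 66.7% beside 32.5% of all genes. None lay below both. The value of the pseudogene was above that of its parent in 96 of 106. Parents were assigned by name throughout. Rpl36a-ps3 (0.68) was thus set against Rpl36a (0.34), while Rpl36al, which its sequence matched more closely, had 0.72.

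Much of the size of these differences came from LysoPS 1. LysoPS 1 exceeded LysoPS 2 in 105 of 108 -ps rows, by a median ratio of 1.76, while mock 1 exceeded mock 2 in 73, by 1.08. The median log2 level over the mock mean was 0.99 in LysoPS 1 and 0.21 in LysoPS 2, against 0.05 in mock 1 and -0.06 in mock 2. LysoPS 2 alone was above both mock libraries in 74 of the 108 rows, beside 7805 of the 19057 genes tested. Without LysoPS 1 the median log2 fold change fell to 0.21, and without LysoPS 2 it was 1.00. With offsets for transcript length and GC content it was 0.44 with 1 call. The same lean was present more weakly in 1066 processed pseudogenes outside the family, where LysoPS 1 exceeded LysoPS 2 in 825 by a median ratio of 1.31. Of 1058 of these that were tested, 49 were called higher (4.63%) and 13 lower (1.23%), beside 12.8% and 12.6% of all genes. Their median log2 fold change was 0.36. What sets LysoPS 1 apart in these rows was not tested.

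**Figure D3:**
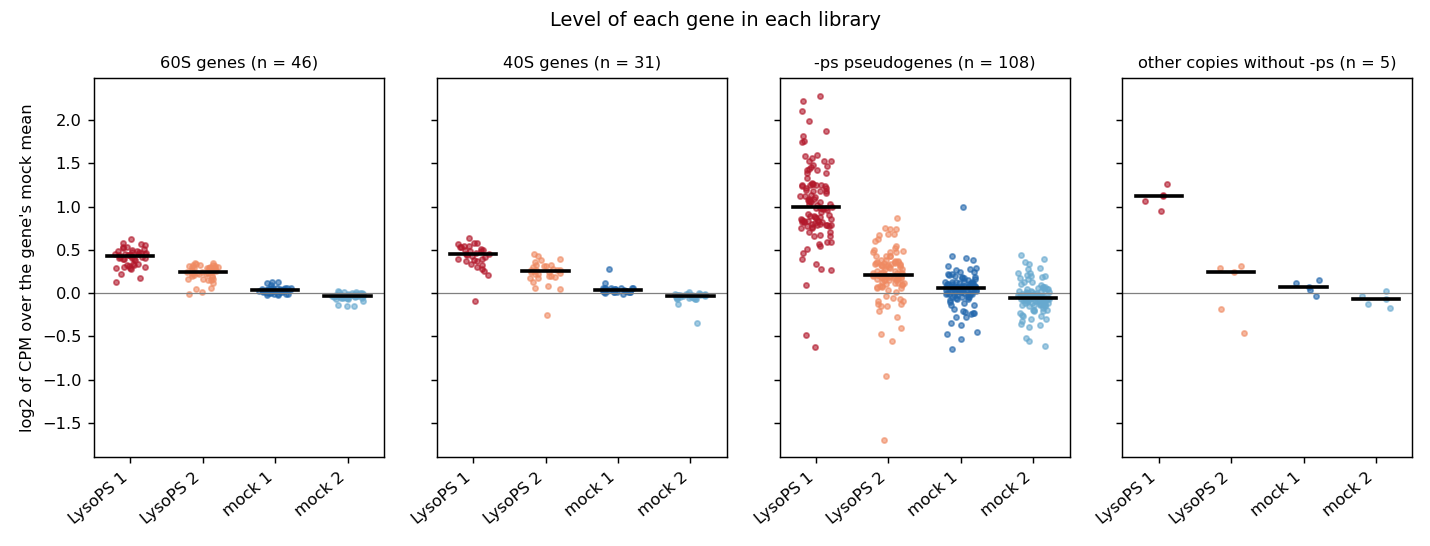
Log2 of each gene's CPM over its mean in mock, per library, for 60S genes, 40S genes, -ps rows and the 5 copies without -ps (Rpl37rt, Rpl6l, Rps3a2, Rps3a3 and Rps27rt); bars are medians, and 1 value of 0 (Rpl19-ps4 in mock 2) is not drawn. The medians of the subunit genes were 0.44 in LysoPS 1 and 0.25 in LysoPS 2, and those of the -ps rows 0.99 in LysoPS 1 and 0.21 in LysoPS 2.

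The reads in -ps rows were few beside those of the parents. Summed over the 108 rows they made up 0.0706% and 0.0436% of all counts with LysoPS, against 0.0412% and 0.0390% in mock. Their summed CPM was 4.42% and 3.05% of that of their 43 parents with LysoPS, against 3.10% and 3.07% in mock, so the ratio stood higher in LysoPS 1 and was about the same in the other 3 libraries. With the counts of the pseudogenes added to the parents, 49 of the 77 families were called higher and none lower, beside 25.8% called in either direction, 13.1% higher and 12.8% lower, of 18948 rows tested, which is the count of the genes on their own.

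The 2 calls were Rpl17-ps9 and Rps2-ps10. Rpl17-ps9, on chromosome 7 from 36118274 to 36118828, stood at 3.82 and 3.52 CPM with LysoPS, against 2.30 and 2.08 CPM in mock (log2 fold change 0.75, SE 0.18, adjusted p = 0.0372). Its LysoPS libraries were close to each other, and its parent Rpl17 had a log2 fold change of 0.32. Rps2-ps10 stood at 31.8 and 25.5 CPM with LysoPS, against 20.7 and 19.5 CPM in mock (0.51, SE 0.13, adjusted p = 0.0458), and its parent Rps2 at 0.28. Neither passed without LysoPS 1, without mock 1 or without mock 2, nor did Rpl17-ps9 by DESeq2 (adjusted p = 0.0564) or Rps2-ps10 by limma-voom (adjusted p = 0.0513).

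The -ps rows with the most counts were Rpl15-ps3, Rpl3-ps1 and Rps6-ps4. Rpl15-ps3, identical to the coding sequence of Rpl15, stood at 49.7 and 43.1 CPM with LysoPS, against 38.5 and 37.2 CPM in mock (log2 fold change 0.30, SE 0.10, adjusted p = 0.0846), close to the 0.26 of its parent. Rps6-ps4 stood at 37.8 and 27.7 CPM with LysoPS, against 22.3 and 22.6 CPM in mock (0.54, SE 0.16, adjusted p = 0.0665), beside 0.46 for Rps6. Rpl3-ps1 stood at 42.5 and 24.6 CPM with LysoPS, against 24.5 and 21.8 CPM in mock (0.53, SE 0.26, adjusted p = 0.202), beside 0.24 for Rpl3. In Rpl3-ps1 LysoPS 2 lay almost on mock 1, and the gap came from LysoPS 1.

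**Figure D4:**
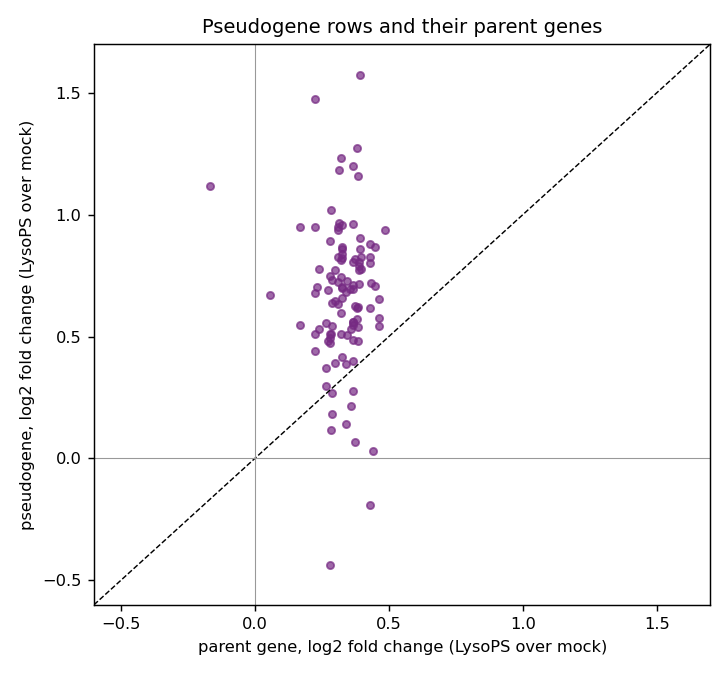
Log2 fold change of each of 106 pseudogene rows against that of its parent gene by name, LysoPS over mock, with the line of equal values dashed. The parents lie in a narrow band and the pseudogenes spread from -0.44 to 1.57, with 96 of 106 above the line.

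In the other copies, those without -ps, LysoPS 1 was again the highest library. Rps3a2 stood at 11.7 and 6.95 CPM with LysoPS, against 5.49 and 5.71 CPM in mock, and Rpl37rt at 17.6 and 9.86 CPM with LysoPS, against 8.96 and 7.12 CPM in mock. Their log2 fold changes were 0.73 and 0.77, and none of Rpl37rt, Rpl6l, Rps3a2 and Rps3a3 passed (median 0.68). Rps27rt, a retrogene of Rps27, stood at 11.2 and 3.39 CPM with LysoPS, against 4.90 and 4.44 CPM in mock (0.63, SE 0.55, adjusted p = 0.439). Here LysoPS 2 was the lowest library and LysoPS 1 the highest, and the value was -0.46 without LysoPS 1.

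The members at the edge of the rule held few reads. Rpl36-ps2, Rpl21-ps7 and Rpl7a-ps10 lay just inside it, with 41, 42 and 42 counts in all, and Rps15-ps2, Rpl9-ps8 and Rplp0-ps1 just outside, with 36, 39 and 39. In all 162 names lay below the minimum, 53 of them with no count. Of these 162, 3 carried no -ps: Rpl10l and Rps12l1 with no count and Rpl3l, a paralog known from striated muscle, with 6.

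Among the ribosomal genes that the name rule does not take, Rack1 and Fau rose. Rack1, whose protein is a scaffold on the small subunit, stood at 652 and 580 CPM with LysoPS, against 471 and 443 CPM in mock (log2 fold change 0.43, SE 0.08, adjusted p = 0.0184). Fau, which encodes RPS30 behind a ubiquitin-like domain, had a log2 fold change of 0.31 (adjusted p = 0.0485). Both lay within the range of the subunit genes.

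Of 18 other mRNAs known to carry a TOP motif, which encode mainly translation factors, 8 rose (44.4%, beside 12.8% of all genes), none fell and 10 did not pass (median log2 fold change 0.26). Pabpc1, the poly(A)-binding protein, stood at 811 and 791 CPM with LysoPS, against 499 and 503 CPM in mock (0.68, SE 0.05, adjusted p = 0.00186). Npm1, the nucleolar chaperone nucleophosmin, had a log2 fold change of 0.53 (adjusted p = 0.00539) and the elongation factor subunit Eef1g 0.35 (adjusted p = 0.0140). Unlike in the subunit genes, the LysoPS libraries of Pabpc1 stood close together. Tpt1 (-0.09) and Eif4b (-0.01) did not pass.

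Of 20 genes known to act on the transcription or translation of ribosomal protein mRNAs, 3 rose and 1 fell, beside 12.8% and 12.6% of all genes. Larp1, the TOP-binding protein, stood at 120 and 122 CPM with LysoPS, against 81.2 and 81.9 CPM in mock (log2 fold change 0.57, SE 0.07, adjusted p = 0.00499). Eif4ebp1, a repressor of cap-dependent initiation that mTOR inactivates, stood at 78.9 and 67.1 CPM with LysoPS, against 34.9 and 38.4 CPM in mock (0.99, SE 0.11, adjusted p = 0.00451). The transcription factor Myc had a log2 fold change of 0.99 (adjusted p = 0.00728), and its relative Mycn fell by 0.74 on the log2 scale (adjusted p = 0.00997). The groups were apart in all 4.

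Of 5 chaperones that escort single ribosomal proteins, 3 rose, beside 12.8% of all genes, and none fell. Grwd1, a chaperone of RPL3, stood at 24.0 and 20.3 CPM with LysoPS, against 12.01 and 11.82 CPM in mock (log2 fold change 0.90, SE 0.12, adjusted p = 0.00769). Bccip, for RPL23, and Heatr3, for RPL5, had values of 0.38 and 0.28. Of 10 genes of the p53 pathway that a surplus of free ribosomal proteins is known to act on, 5 rose and 1 fell, beside 12.8% and 12.6% of all genes. Mdm2 stood at 89.1 and 86.3 CPM with LysoPS, against 55.3 and 52.3 CPM in mock (0.70, SE 0.07, adjusted p = 0.00396). The cell cycle inhibitor Cdkn1a (0.71) and the apoptosis gene Bax (0.57) rose, and Sesn1 fell by 0.64.

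Markers of several cell types moved between the groups, and their part in the ribosomal protein values was not tested. Their calls stand beside 12.8% called higher and 12.6% called lower over all genes. Of 16 microglia and macrophage models 10 were called higher and 2 lower, with summed levels of 14821 and 12982 CPM with LysoPS, against 5879 and 5358 CPM in mock, most of it from Lyz2. Of 10 astrocyte markers 9 were called lower, with sums of 5097 and 5817 CPM with LysoPS, against 10904 and 9804 CPM in mock. Gfap alone stood at 2679 and 2900 CPM with LysoPS, against 5971 and 5683 CPM in mock, so the cultures labelled microglia held much astrocyte RNA. Of 7 fibroblast markers 3 were called lower, with sums of 11948 and 12309 CPM with LysoPS, against 14475 and 14620 CPM in mock.

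The other marker lists were low or level, and their calls stand beside the same shares over all genes (12.8% higher, 12.6% lower). The sums were 333 and 317 CPM with LysoPS, against 337 and 321 CPM in mock, for 8 oligodendrocyte lineage markers (4 called higher, 1 lower). They were 159 and 184 CPM with LysoPS, against 336 and 329 CPM in mock, for 5 endothelial markers, of which 4 were tested and 2 called lower, with Cldn5 at or near 0. For 5 neuronal markers (1 called higher) they were 243 and 239 CPM with LysoPS, against 204 and 192 CPM in mock. For 8 proliferation genes, none of which was called by edgeR or had an unadjusted p under 0.05, they were 738 and 792 CPM with LysoPS, against 764 and 760 CPM in mock.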

How the data were processed

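Messenger RNA was measured in 2 LysoPS and 2 mock libraries. Per the labels' protocols, RNA was taken up in Trizol, mRNA was bound to poly-T beads, and libraries were read from both ends on MGISEQ2000 instruments. The sources used here do not give whether strand was kept. The submitters' processing notes name HISAT2, StringTie, Trimmomatic 0.36 and FastQC 0.11.2, and the build GRCm38. Per the file headers, the deposited table holds TPM, FPKM and count columns for each library. The deposited counts were whole and not normalized. The deposited TPM served for levels between genes, ratios of paralogs and 1 alternative of the share, and the deposited FPKM only for the implied length (counts over FPKM).

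Counts were tested with edgeR 4.0.16 in R 4.3.3: filterByExpr (minimum count 10), TMM scaling (factors from 0.966 to 1.04), quasi-likelihood F test with 2 residual degrees of freedom and Benjamini-Hochberg adjustment over 19057 genes at 0.05. The biological coefficient of variation was 0.15. All 89 members without -ps and 106 of 108 with it passed the filter, and subunit genes held at least 2028 counts in every library (Rpl36a). CPM used TMM-scaled library sizes. Standard errors were the log2 fold change over the root of F. The fit was tested on simulated counts.

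The members and lists were chosen with earlier results of these data known. Text names followed a rule: the 6 smallest p-values per subunit and direction, the 3 highest and lowest by TPM, paralogs, stalk genes, the MDM2 binders, Rps6, called pseudogenes and the 3 with most counts, and up to 3 genes per list and direction. Others were named after their values were seen, and some genes the rule takes are not reported here. GENCODE M21 gave transcripts, and the longest of each gene set its transcript length and GC content. Of 197 members, 172 had the GENCODE coordinates.

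The alternatives were DESeq2 size factors, TMM without the members, no filter and a filter of 5 CPM in 2 libraries, DESeq2 1.42.0, limma-voom (limma 3.58.1), robust dispersion, a replicate block, offsets from splines of 5 degrees of freedom on transcript length and GC content, alone and with the block, each library left out, and a null fold change of 1.2. Counts over the 77 subunit genes alone and the other processed pseudogenes were added after seeing the data. The treatment protocol speaks of 1 replicate, but 2 samples are labelled LysoPS, and the sample labels were followed.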

Additional observations from a re-analysis of the deposited data

How the results depend on the processing

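Every subunit gene held at least 2028 counts in each library, while the -ps rows had a median of 250 over all libraries, so counting error weighs more on the pseudogenes. Of the 77 subunit genes the alternatives that kept all libraries and a null of no change called between 41 and 63 higher. Over all genes tested these alternatives called between 8.46% and 16.5% higher. Against a null fold change of 1.2, 1 of the subunit genes, 2 of the 89 members without -ps and 1 of the families were called higher. At this null 0 pseudogenes were called, and 7.29% of all genes tested were called higher. With offsets for length and GC content the median log2 fold change of the subunit genes was 0.21, alone and with the replicate block, and 1 gene was called lower, Rps25, also in the family sums and under both. The longest transcripts of the subunit genes had a median length of 1094 bases and a median GC content of 51%, beside 2997 bases and 49.4% over all genes tested.

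The count of pseudogenes called higher was 7 with no filter, 1 with the 5 CPM filter, 6 by DESeq2, 1 by limma-voom, 4 with robust dispersion, 8 with the replicate block, 1 with the offsets and 4 with block and offsets. Leaving out a library gave between 1 and 79 higher calls among members without -ps, 0 to 69 among subunit genes, 0 to 69 among family sums and 0 to 54 among pseudogenes. Each of these fits leaves a group with a single library, and the share called over all genes moved between them too. Their counts of calls are therefore not read as a result. The medians of the log2 fold change in these fits ranged from 0.24 to 0.44 in subunit genes and from 0.21 to 1.00 in pseudogenes. The share of counts differed by 0.274 to 0.614 percentage points, and the share of TPM by 0.758. Over all genes the numbers of the labels did not show pairing: samples of one number deviated together with a correlation of 0.08. Of the 77 subunit genes, library 1 exceeded library 2 in 77 with LysoPS and in 69 in mock. The block called 63 subunit genes, and pairing within these genes was not tested.

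Signs turned in 3 named genes, and the cause was not tested. Rpl22l1 stood at 0.0013 with DESeq2 size factors, 0.0011 by DESeq2, and it ranged from -0.075 (without LysoPS 1) to 0.047 (without LysoPS 2) when a library was left out. Rpl7 stood at -0.053 with offsets and -0.047 with block and offsets, and it ranged from -0.076 (without mock 2) to 0.20 (without mock 1). Rps27rt ranged from -0.46 (without LysoPS 1) to 1.26 (without LysoPS 2). Of 42 named genes called, 30 did not pass without mock 1, 33 without mock 2, 14 without LysoPS 1 and 1 without LysoPS 2.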
